A study of Drosophila melanogaster with 48 samples.

Results

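Nonsense-mediated mRNA decay (NMD) is followed here through 6 genes of Drosophila melanogaster: the decay factors Upf1, Upf2, Upf3, Smg5 and Smg6, and Gadd45, whose mRNA is a known target of the pathway in flies. Their rows were taken by FlyBase gene ID from each of the 12 deposited comparisons of a knockdown with GFP. Of the 7 genes listed for this pathway, 6 had a row under their current ID among the 15065 gene IDs of the tables. The current ID of Smg1 had no row. Whether Smg1 is listed under another ID was not settled, and it was not analysed here. They were chosen by name, with earlier results of these data known.

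NMD removes mRNAs on which a ribosome stops too early. Upf1, an RNA helicase, is recruited to the terminating ribosome, and Upf2 joins it to Upf3, which in mammals contacts exon junction complexes left by splicing. The phosphorylated form of Upf1 is bound by Smg5 and Smg6, and Smg6 is an endonuclease that cuts the target, the main route of decay described in flies. Gadd45, a small stress-induced protein that activates the kinase Mekk1, is encoded by an mRNA that builds up in flies lacking Upf factors. Rrp6, Rrp40 and Csl4 belong to the RNA exosome, the complex that trims and degrades RNA from its 3′ end: Rrp6 is a nuclear exonuclease, and Rrp40 and Csl4 are subunits of the cap that binds RNA.

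The study asked how RNA changes when exosome subunits are depleted. S2 and S3 cells, established Drosophila embryonic lines, received 2 ug of dsRNA by transfection, directed at Csl4, Rrp40 or Rrp6, or at GFP as the control that carries the same treatment without a fly target, and were collected on day 5. Poly(A)+ RNA and RiboMinus RNA, which is total RNA depleted of ribosomal RNA, were sequenced. The labels list 34 RNA samples, in which replicate 2 of S3 is split into technical repeats. With those repeats counted together, the tables hold 28 libraries. In S2 poly(A) RNA there were 2 libraries each for GFP, Csl4 and Rrp6 and 1 for Rrp40. S3 poly(A) RNA had 3 for GFP and 2 for each knockdown, S3 RiboMinus RNA had 2 for each of the 4 dsRNAs, and S2 RiboMinus RNA had 1 for each. The titles number them as biological replicates, and no label used here says whether they were separate cultures. The p-values therefore measure the spread between these libraries, estimated over all groups of a set and in part from other genes. In S3 RiboMinus RNA the own spread of a gene did not enter this estimate.

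The reads of each library were recovered from the deposited means. Reads on genes ranged from 5737608 to 8378647 in the deeper and from 532934 to 1457393 in the shallower libraries of S2 poly(A) RNA. The same classes held 3055056 to 69426568 and 602269 to 1451054 reads in S3 poly(A) RNA, and 6217631 to 9212060 and 108782 to 138219 reads in S3 RiboMinus RNA. The S2 RiboMinus libraries held 67743 to 157282 reads. Reads of the targeted gene were higher, not lower, on average in the libraries labelled as its knockdown in 12 of 12 pairings of a target with a line and fraction, which goes against the label, although the labels state that depletion was checked by Western blot. Levels are given in CPM (the reads of a gene scaled to a common library total, after TMM scaling). The smallest rise was that of Csl4 in S2 poly(A) RNA, at 130.7 CPM against 86.19 with GFP. Rrp40 in S3 poly(A) RNA was at 9376 CPM against 46.58. Whether such reads came from the mRNA or from the transfected dsRNA was not tested. A knockdown named here is therefore the set of libraries labelled with that dsRNA, and each direction given for it is that of those libraries. Hemocyte genes were detected in both lines, 7 of 7 in every poly(A) group except Rrp40 in S2, where NimC1 was at 0. Their summed level under GFP dsRNA was 570.1 to 1220 CPM in S2 and 2825 to 3408 in S3 poly(A) RNA. Muscle and fat body genes summed to at most 63.5 and 2.59 CPM in S3, and to 78.3 and 1.16 CPM in S2, under the same dsRNA and in the same RNA.

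Gadd45 carried the largest change of the 6 genes, and it rose with Rrp6 dsRNA in all 3 line and fraction sets that had replicates. Its level in S2 poly(A) RNA was 58.3 and 80.0 CPM in the GFP libraries and 176.2 and 350.0 CPM in the libraries labelled Rrp6. The ranges were apart, and the log2 change fitted by edgeR, knockdown over GFP, was 1.87 ± 0.26 (SE, n = 2 against 2, adjusted p 9.7e-06). The 3 GFP libraries of S3 poly(A) RNA held 36.8, 40.7 and 57.0 CPM and the 2 Rrp6 libraries 989.8 and 201.9 CPM. Both Rrp6 libraries lay above every GFP library, and the fitted change was the largest measured for any of the 6 genes against GFP, 3.77 ± 0.56 (edgeR adjusted p 0.00115). In S3 RiboMinus RNA the level was 23.6 and 14.04 CPM with GFP and 74.9 and 56.0 CPM with Rrp6, again without overlap, a change of 1.70 ± 0.43 (edgeR adjusted p 0.00108). These are bulk samples, in which fewer cells of a type and less RNA per cell cannot be told apart.

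**Figure D1:**
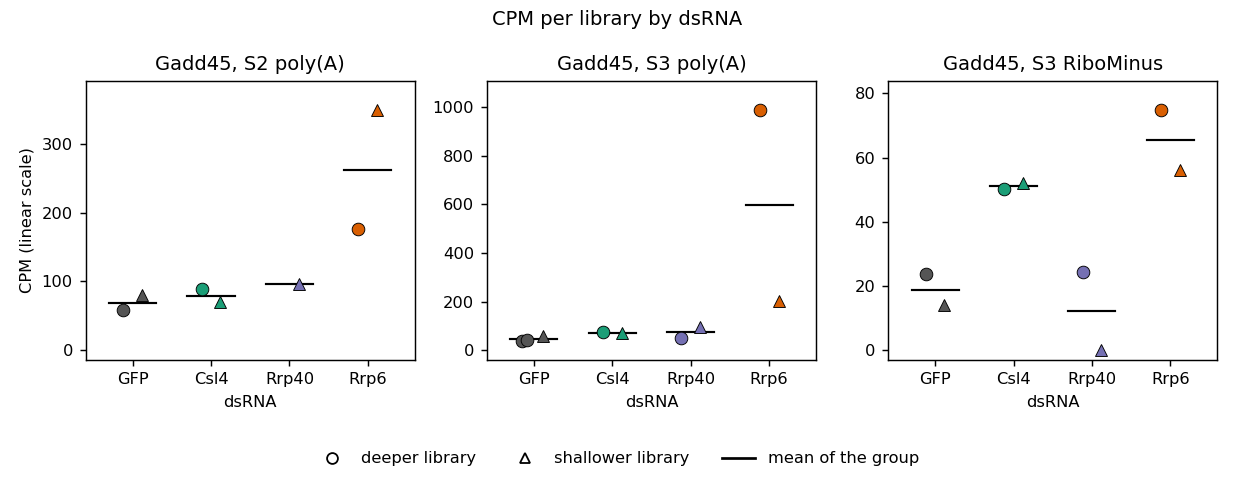
Gadd45 level in CPM (linear vertical axis, a separate range in each panel) in each library by dsRNA, for S2 poly(A) RNA and both fractions of S3 RNA. Circles are deeper and triangles shallower libraries, and the bar is the group mean; both Rrp6 libraries lie above every GFP library in each panel, and 1 Rrp6 library of S3 poly(A) RNA stands at 989.8 CPM.

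The size of the Gadd45 change differed between depths of library. Within the deeper libraries the Rrp6 level was 3.03 times that of GFP in S2 poly(A) RNA, and in S3 it was 25.5 times in poly(A) and 3.17 times in RiboMinus RNA. Within the shallower ones it was 4.38, 3.54 and 3.99 times, the last from 6 reads against 2. The S3 poly(A) value therefore leans on Rrp6 replicate 1, and without that library the fitted change was 1.903 (edgeR adjusted p 0.00621), near the values of the other sets. The fits carry a block for depth, since libraries of the same depth class deviated together. Without the block the S2 poly(A) change was 1.93 and the S3 RiboMinus change 1.69, and neither was called (edgeR adjusted p 0.136 and 0.415), while the S3 poly(A) change kept its call.

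Calls at an adjusted p of at most 0.05 were common with Rrp6 dsRNA. Of the genes tested, 37.1% were called in S2 poly(A) RNA (20.2% higher and 16.9% lower). In the S3 line 36.1% were called in poly(A) RNA (19.7% higher and 16.4% lower) and 19.7% in RiboMinus RNA (12.4% higher and 7.35% lower). Among the 6 genes described here, all of which passed the filter on low counts in each set, 2 were called in each of these 3 comparisons, and all of those calls were higher. The median log2 change over the 6 was 0.35, 0.044 and -0.16, and over all genes tested -0.048, 0.0084 and 0.067. A share of 2 in 6 is near the background in each poly(A) set. The direction lay with Gadd45 in all 3 sets, with Smg5 in S2 poly(A) and with Smg6 in the S3 sets.

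Genes of other cell types moved in the same libraries. The summed level of 4 neuronal genes was 42.1 to 99.7 CPM with GFP and 178.5 to 316.4 CPM with Rrp6 in S2 poly(A) RNA, 13.7 to 25.9 and 27.9 to 59.4 CPM in S3 poly(A) RNA, and 39.1 to 77.2 and 99.2 to 139.9 CPM in S3 RiboMinus RNA. All 4 had reads in each of these groups. The numbers called were 2, 1 and 2 in the same order, all higher. Only 2 of the 4 genes passed the filter on low counts in each set. Of these, brp rose in all 3 sets (2.11 ± 0.24, 3.54 ± 0.72 and 1.84 ± 0.68, edgeR adjusted p 1.0e-06, 0.00506 and 0.038) and elav in S2 poly(A) and S3 RiboMinus RNA (1.32 ± 0.34 and 1.116 ± 0.38, edgeR adjusted p 0.00478 and 0.0228). Without the depth block brp kept its call in S3 poly(A) RNA (adjusted p 0.0295) and the other 4 of these calls were lost, and DESeq2 called neither gene in S3 RiboMinus RNA. The 7 hemocyte genes summed to 1407 to 2143 CPM with Rrp6 in S3 poly(A) RNA, below the GFP range. Of the hemocyte genes tested, 1 of 6 was called in S2 poly(A) RNA, 2 of 5 in S3 poly(A) RNA and 0 of 5 in S3 RiboMinus RNA, all lower, with list medians of 0.052, -0.43 and -0.25. The called genes were Pxn in S2 (-1.19 ± 0.23) and S3 poly(A) RNA (-1.24 ± 0.35; edgeR adjusted p 0.000317 and 0.0211) and eater in S3 poly(A) RNA (-2.11, edgeR adjusted p 0.0403), and none of these calls was kept without the block. The hemocyte sum of S2 poly(A) RNA with Rrp6, 539.1 to 788.4 CPM, overlapped that with GFP. The part of these genes in the Gadd45, Smg5 and Smg6 changes was not tested.

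The cap subunits gave smaller values for Gadd45. In S2 poly(A) RNA it was at 88.4 and 69.6 CPM with Csl4 and at 95.6 CPM in the single Rrp40 library. The Csl4 range overlapped that of GFP, and the fitted changes were 0.35 ± 0.26 and 0.26 ± 0.35 (edgeR adjusted p 0.651 and 1). Every error and p given for Rrp40 in S2 poly(A) RNA assumes that its lone library varies like the libraries of the other groups. For S3 poly(A) RNA the levels were 73.3 and 69.7 CPM with Csl4 and 50.7 and 95.7 CPM with Rrp40. The Csl4 libraries lay above the GFP libraries and the Rrp40 libraries overlapped them, with changes of 0.75 ± 0.56 and 0.69 ± 0.58 (edgeR adjusted p 0.704 and 0.963). In S3 RiboMinus RNA Csl4 libraries held 50.2 and 52.2 CPM, above both GFP libraries, and Rrp40 libraries 24.5 and 0 CPM. The Csl4 change there was 1.21 ± 0.43, with a 95% interval from 0.36 to 2.05, and it did not pass after adjustment (unadjusted p 0.00501, edgeR adjusted p 0.135). The Rrp40 change was -0.019 ± 0.44 (edgeR adjusted p 1).

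None of the 6 genes was called with Csl4 dsRNA, against 1.96% of the genes tested for S2 poly(A) RNA and, for S3, 0.24% in poly(A) and 2.16% in RiboMinus RNA. With edgeR at an unadjusted p under 0.05 there were 1, 0 and 1 of them, namely Upf3 and Gadd45, and DESeq2 called 0 in each set. None was called with Rrp40 dsRNA, where 0.101%, 0% and 0.217% of the genes tested were called in the same order. The count of the 6 genes at an unadjusted p under 0.05 was 0 in each of the 3 sets, and DESeq2 also called 0. Over all genes in S3 poly(A) RNA, edgeR called 0 genes for Rrp40, with 437 at an unadjusted p under 0.05, and DESeq2 called 50. The authors' deposited test of the same comparison called 205 genes higher and 7 lower, 1.73% of those it tested.

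The difference between knockdowns was then tested directly. Gadd45 of S2 poly(A) RNA was higher with Rrp6 than with Csl4 by 1.52 ± 0.26 and than with Rrp40 by 1.61 ± 0.34 on the log2 scale (edgeR adjusted p 0.000541 and 0.00423), the second of these against the lone Rrp40 library, which has no replicate spread of its own. It was the only one of the 6 genes called in either comparison, where 13.4% and 11.2% of the genes tested were called. The differences in S3 poly(A) RNA were 3.02 ± 0.64 and 3.08 ± 0.67 (edgeR adjusted p 0.0177 and 0.0107), and Gadd45 and Smg6 were called in both, with 14.6% and 26.1% of all genes. The deeper library of this set is replicate 1 for Rrp6 and Csl4 and replicate 2 for Rrp40. For every gene the S3 poly(A) difference of Rrp6 from Rrp40 therefore sets different replicates against each other among the deeper libraries. In S3 RiboMinus RNA Gadd45 was higher with Rrp6 than with Rrp40 by 1.72 ± 0.42 (edgeR adjusted p 0.00172), and the same 2 genes were called, with 10.4% of all genes. Against Csl4 the difference was 0.49 ± 0.41, with a 95% interval from -0.31 to 1.29 (edgeR adjusted p 0.738). None of the 6 was called there by edgeR or DESeq2, with 1 at an unadjusted p under 0.05, against 2.46% of all genes called by edgeR. None of the calls in these comparisons between knockdowns was kept without the depth block, where the adjusted p of Gadd45 ran from 0.0583 to 0.724. The S2 difference from Rrp40 also lost its call without Rrp6 replicate 3 (0.96, edgeR adjusted p 0.126). The S3 poly(A) difference of Gadd45 from Csl4 lost it without either Csl4 library (2.87 and 3.03, edgeR adjusted p 0.146 and 0.108) or without Rrp6 replicate 1 (1.23, edgeR adjusted p 0.078), and that from Rrp40 without Rrp40 replicate 2 (2.22, edgeR adjusted p 0.162). By group mean the order of Gadd45 in both poly(A) sets was GFP, Csl4, Rrp40, Rrp6. The fitted changes against GFP, which take depth into account, put Csl4 and Rrp40 in the other order. They were 0.35 and 0.26 in S2, where the Rrp40 mean is 1 shallower library, and 0.75 and 0.69 in S3. Neither Csl4 nor Rrp40 was called against GFP, and the difference between Csl4 and Rrp40 was not tested.

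**Figure D2:**
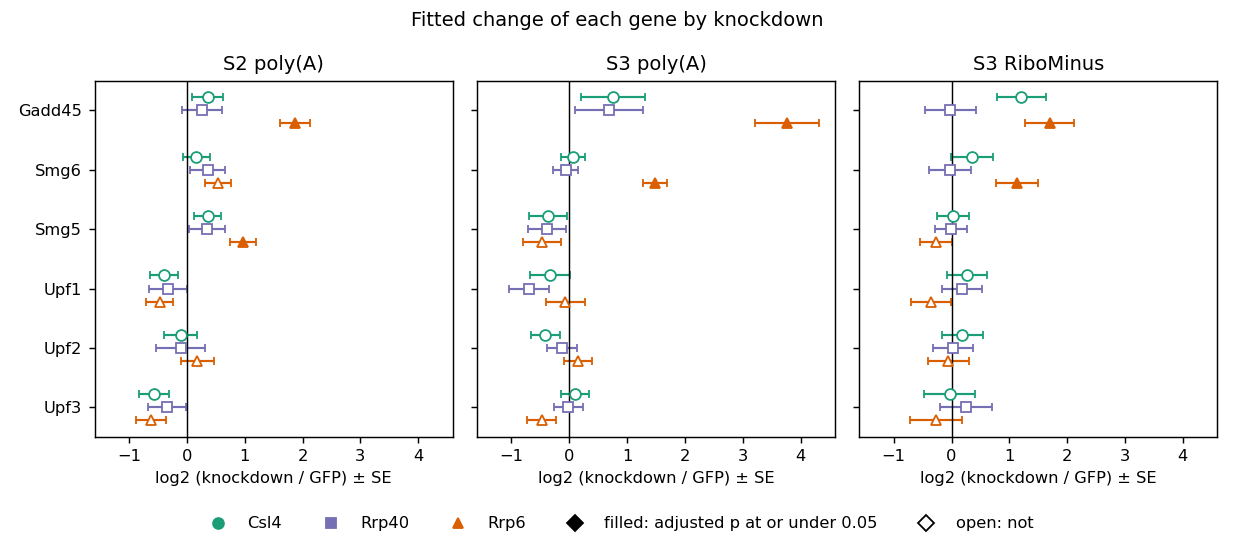
Fitted log2 change of each gene, knockdown over GFP, with its SE as the error bar, for Csl4 (circles), Rrp40 (squares) and Rrp6 (triangles) in the 3 sets with replicates. Filled symbols passed an edgeR adjusted p of 0.05; they are all Rrp6 values, at 1.87, 3.77 and 1.70 for Gadd45, 1.49 and 1.13 for Smg6 and 0.96 for Smg5.

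Smg6, the endonuclease of the pathway, rose with Rrp6 dsRNA in the S3 line. Its S3 poly(A) level was 108.1, 110.4 and 82.9 CPM in the GFP libraries and 332.7 and 200 CPM in the Rrp6 libraries. Every Rrp6 value was above every GFP value, with a change of 1.49 ± 0.21 (edgeR adjusted p 0.000823). In the same RNA the Csl4 libraries held 121.5 and 76.1 CPM and the Rrp40 libraries 114.8 and 65.3 CPM, which overlapped the GFP range. The change was 0.066 ± 0.21 with Csl4 and -0.065 ± 0.22 with Rrp40. Rrp6 exceeded Csl4 by 1.42 ± 0.23 and Rrp40 by 1.56 ± 0.24 (edgeR adjusted p 0.0106 and 0.0035), and neither difference was called without the block (edgeR adjusted p 0.141 and 0.0731). The difference from Csl4 was also not called without Csl4 replicate 1 or 3 (edgeR adjusted p 0.0998 and 0.0775).

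In S3 RiboMinus RNA Smg6 was at 70.0 and 14.04 CPM with GFP and at 138.0 and 74.6 CPM with Rrp6, a narrow separation. The shallower libraries gave 2 reads with GFP and 8 with Rrp6. The change was 1.13 ± 0.36 (edgeR adjusted p 0.0137), and within the deeper pair alone the Rrp6 level was 1.97 times that of GFP. This call was lost without the block (1.16, edgeR adjusted p 0.604), without the filter on low counts (0.96, edgeR adjusted p 0.0888) and in DESeq2 (1.26, adjusted p 0.0792). It was also lost without GFP replicate 2 (2.29, edgeR adjusted p 0.152), GFP replicate 3 (0.85, edgeR adjusted p 0.133) or Rrp6 replicate 2 (1.64, edgeR adjusted p 0.211). Rrp6 exceeded Rrp40 by 1.16 ± 0.37 (edgeR adjusted p 0.0235), and this too was not called without the block (adjusted p 0.946), without the filter on low counts (adjusted p 0.14) or in DESeq2 (adjusted p 0.0999). It was not called without GFP replicate 3 (1.02), Rrp40 replicate 2 (0.90), Rrp40 replicate 3 (1.06) or Rrp6 replicate 2 (1.65; edgeR adjusted p 0.0654, 0.635, 0.104 and 0.289). In S2 poly(A) RNA Smg6 was at 105.8 and 90.4 CPM with GFP and at 172.5 and 110.0 CPM with Rrp6. The ranges were apart, but the change of 0.53 ± 0.23 did not pass (edgeR adjusted p 0.0704), with a 95% interval from 0.059 to 1.00. It passed with RLE scaling (0.57, edgeR adjusted p 0.0495).

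Smg5, the adaptor that binds Upf1, was the second called gene in S2. Its level in S2 poly(A) RNA was 134.5 and 62.6 CPM in the GFP libraries and 232.1 and 148.9 CPM in the Rrp6 libraries. Both Rrp6 values exceeded both GFP values, and the change was 0.96 ± 0.23 (edgeR adjusted p 0.0021). Without the block it was 0.94 and was not called (edgeR adjusted p 0.362). Csl4 libraries held 150.4 and 102.4 CPM and the Rrp40 library 92.7 CPM, within or near the GFP range. In S3 poly(A) RNA Smg5 was at 377.9, 530.6 and 542.4 CPM with GFP and at 456.4 and 238.5 CPM with Rrp6, and the groups overlapped. Its change there was -0.47 ± 0.32, and in S3 RiboMinus RNA it was -0.26 ± 0.28 (edgeR adjusted p 0.286 and 0.574). Among the Csl4 and Rrp40 values of the S3 line the fitted changes ran from -0.38 to 0.022.

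**Figure D3:**
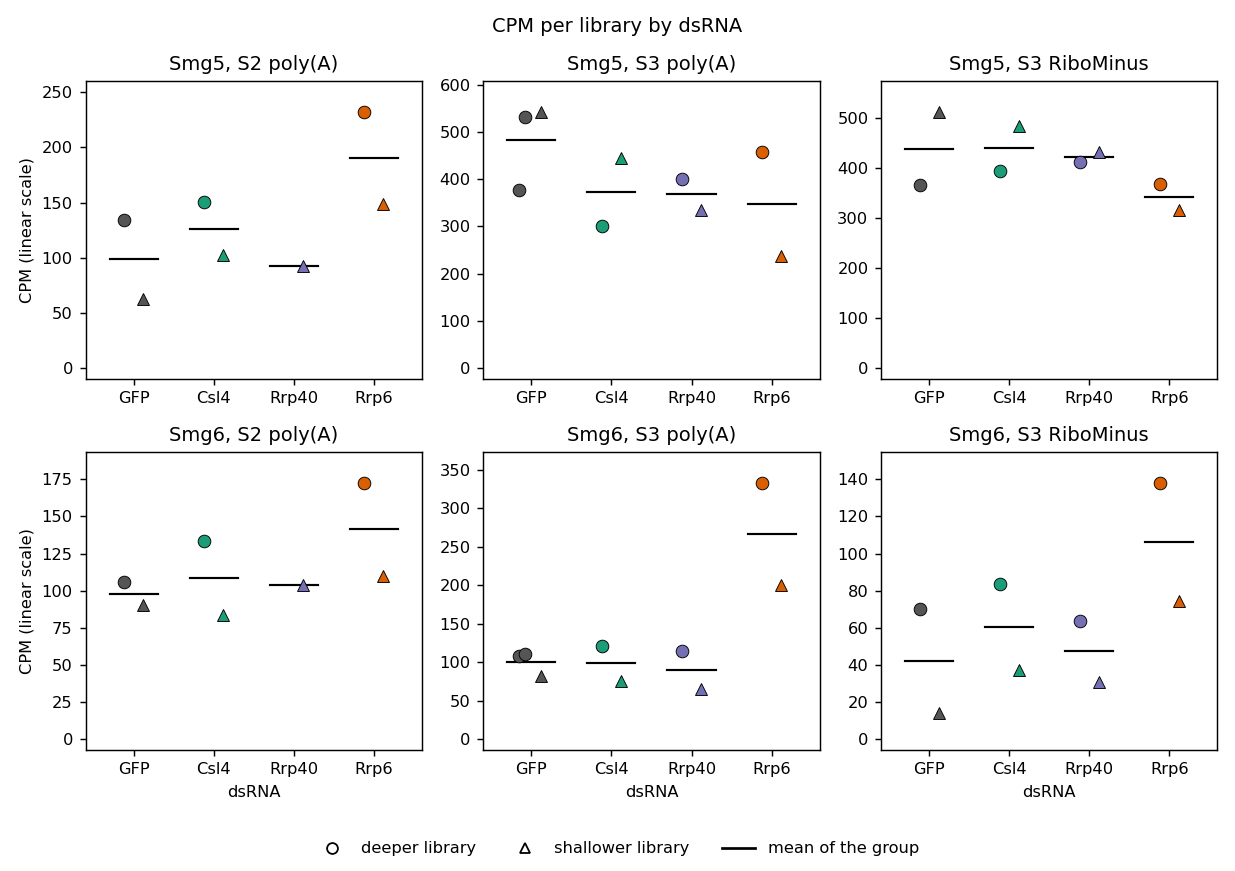
Smg5 (top row) and Smg6 (bottom row) levels in CPM in each library by dsRNA, on linear vertical axes with a separate range in each panel. Circles are deeper and triangles shallower libraries, and bars are group means; Smg6 stands at 332.7 and 200 CPM with Rrp6 dsRNA in S3 poly(A) RNA, and Smg5 lies at 232.1 and 148.9 CPM with the same dsRNA in S2 poly(A) RNA.

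The 3 Upf genes were not called against GFP in any of the 9 comparisons. Upf1, the helicase, was at 95.6 and 57.9 CPM with GFP and at 65.6 and 45.6 CPM with Rrp6 in S2 poly(A) RNA. In S3 poly(A) RNA the GFP libraries held 101.6, 106.5 and 45.3 CPM and the Rrp6 libraries 99.9 and 42.3 CPM. The shallower library was lower than the deeper in every group of these 2 sets that had both, and the GFP and Rrp6 ranges overlapped. The Upf1 change with Rrp6 was -0.47 ± 0.23 in S2 poly(A) RNA, -0.067 ± 0.33 in S3 poly(A) RNA and -0.36 ± 0.35 in the RiboMinus fraction (edgeR adjusted p 0.116, 0.893 and 0.533). The largest Upf1 change with another dsRNA was -0.70 ± 0.34, with Rrp40 in S3 poly(A) RNA (edgeR adjusted p 0.94), where the shallower library held 5 reads. In S3 RiboMinus RNA the 2 reads of the shallower GFP library gave 14.04 CPM against 147.5 CPM in the deeper one, and without the deeper one the Rrp6 change was 2.09 and not called.

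Upf2, the bridge between Upf1 and Upf3, had the narrowest span of the 6 genes over the 9 comparisons with GFP, from -0.42 to 0.18. Its fitted changes with Rrp6 were 0.17 ± 0.29, 0.15 ± 0.24 and -0.061 ± 0.35 in S2 poly(A) RNA and in poly(A) and RiboMinus RNA of S3. Its S2 poly(A) level was 50.4 and 22.01 CPM with GFP and 43.0 and 46.9 CPM with Rrp6, so the Rrp6 values lay inside the GFP range. The 95% interval of the S3 poly(A) change ran from -0.38 to 0.69. With Csl4 the changes were -0.11, -0.42 and 0.18, and with Rrp40 -0.11, -0.13 and 0.025, none of them called.

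Upf3, which in mammals meets the exon junction complex, was at 70.8 and 180.7 CPM with GFP and at 63.0 and 80.5 CPM with Rrp6 in S2 poly(A) RNA. The 2 GFP libraries differed more from each other than the group means did. The change was -0.62 ± 0.26 (edgeR adjusted p 0.061), and it passed without the filter on low counts (-0.70, adjusted p 0.0186) and in a fit of the GFP and Rrp6 libraries alone (-0.62, adjusted p 0.041). It also passed without Csl4 replicate 3 (-0.67, adjusted p 0.034). Without the deeper GFP library it was -1.19 (adjusted p 0.00205), and with Csl4 under the same omission -1.17 (adjusted p 0.0234). In S3 poly(A) RNA it was at 55.1, 43.6 and 45.3 CPM with GFP and at 34.1 and 37.5 CPM with Rrp6, below every GFP library, with a change of -0.48 ± 0.25 that was not called (edgeR adjusted p 0.164). Upf3 overlaps DNAlig1, a DNA ligase gene, in the Release 6 annotation, and no source used here tells if counting took strand into account, so its values are uncertain.

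**Figure D4:**
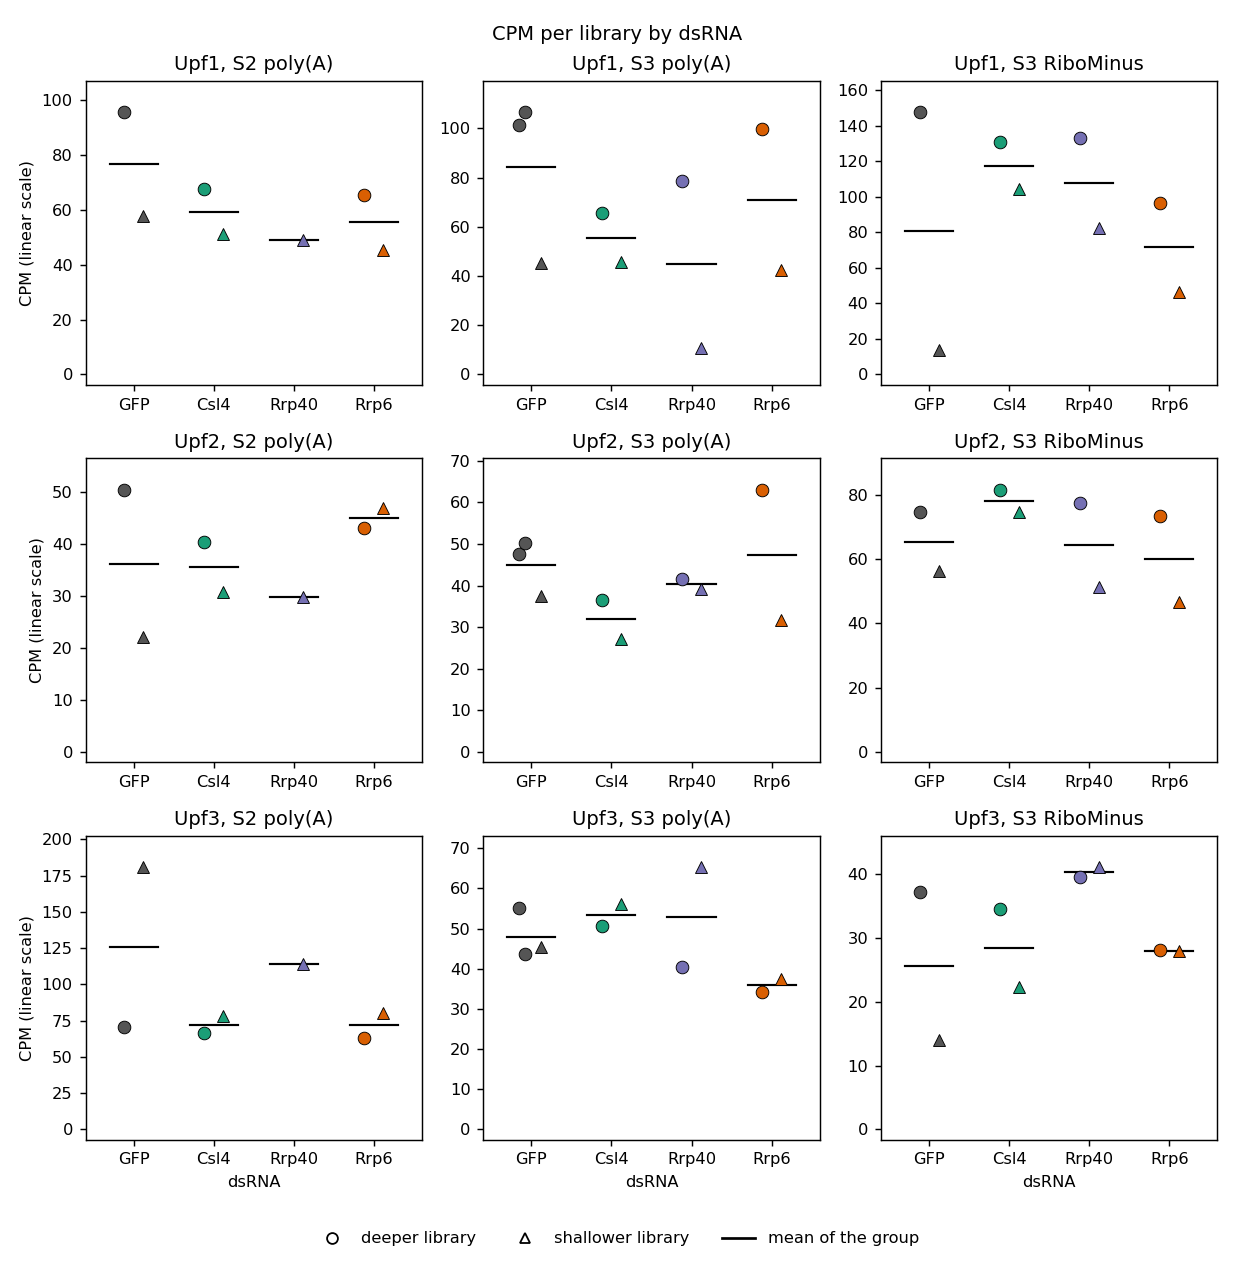
Upf1, Upf2 and Upf3 levels in CPM in each library by dsRNA, on linear vertical axes with a separate range in each panel. Circles are deeper and triangles shallower libraries, and bars are group means; deeper and shallower libraries of 1 dsRNA lie far apart for Upf1 and for Upf3 in S2 poly(A) RNA, where the GFP libraries stand at 70.8 and 180.7 CPM for Upf3.

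Without any knockdown the lines differed most in Smg5. With GFP dsRNA its level was 62.6 and 134.5 CPM in S2 and from 377.9 to 542.4 CPM in S3 poly(A) RNA, and the log2 difference, S3 over S2, was 2.51 ± 0.33 (edgeR adjusted p 3.1e-05). Upf3 was lower in S3 by 1.03 ± 0.27 on the same scale (-1.03, edgeR adjusted p 0.00752), and that difference was not called without the shallower GFP library of S2 (-0.46, adjusted p 0.352) or of S3 (-0.84, adjusted p 0.0508). These 2 of the 6 genes were called, against 35.5% of all genes tested between the lines. The values of the other 4 were -0.54 ± 0.48 for Gadd45, 0.083 ± 0.21 for Smg6, 0.023 ± 0.32 for Upf1 and 0.36 ± 0.29 for Upf2. Between fractions of S3 RNA with GFP dsRNA, 1 of the 6 was called, against 13.5% of all genes tested. Smg6 was lower in RiboMinus than in poly(A) RNA (-1.09 ± 0.30, edgeR adjusted p 0.0205), and this was not called without the block (-0.95, adjusted p 0.491). It was also not called without GFP replicate 2 or 3 of RiboMinus RNA (-2.35 and -0.92, adjusted p 0.115 and 0.178) or without GFP replicate 3 of poly(A) RNA (-1.09, adjusted p 0.0554). Gadd45 was also at lower CPM in RiboMinus RNA, at -1.08 ± 0.61, which did not pass (adjusted p 0.269) but did without Rrp6 replicate 1 or 3 of S3 poly(A) RNA (-1.25 and -1.28, adjusted p 0.0161 and 0.0101).

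Whether the Rrp6 changes differed between lines was tested as an interaction, the S3 change minus the S2 change in poly(A) RNA. It was 1.86 ± 0.69 for Gadd45, -1.46 ± 0.44 for Smg5 and 0.98 ± 0.31 for Smg6, and none passed (edgeR adjusted p 0.191, 0.107 and 0.116, with 3 of the 6 at an unadjusted p under 0.05). Of all genes tested 2.64% were called by edgeR, or 237 genes, and DESeq2 called 457. DESeq2 called Smg5 and Smg6 (-1.49 and 0.93, adjusted p 0.0373 and 0.0394), and edgeR without the filter on low counts called Smg5 and Gadd45 (-1.51 and 1.81, adjusted p 0.00817 and 0.000461). For Gadd45 the value was 0.097 without Rrp6 replicate 1 of S3 and 2.66 without replicate 3 (adjusted p 0.974 and 0.00045), so the value turned on a single library. For Smg5 it was -2.05 without that replicate 1 (adjusted p 0.0289). The Csl4 interaction between lines gave 0 calls among the 6 genes by edgeR and by DESeq2, 0 at an unadjusted p under 0.05, and 0% of all genes.

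The deeper Csl4 and Rrp6 libraries of S3 are replicate 1 in poly(A) and replicate 2 in RiboMinus RNA. Among them, fraction and replicate cannot be told apart. Between fractions of S3 RNA, the Rrp6 change of Gadd45 in RiboMinus minus that in poly(A) RNA was -2.15 ± 0.77, with a 95% interval from -3.75 to -0.54. It did not pass after adjustment (unadjusted p 0.0115, edgeR adjusted p 1). Without the filter on low counts it did (-2.11, adjusted p 0.0104), and so it did without Rrp6 replicate 3 of poly(A) RNA (-2.80, adjusted p 0.000209), but without replicate 1 it was -0.25. No other member was at an unadjusted p under 0.05, 0% of all genes were called by edgeR and DESeq2 called 0 of the 6. For Csl4 the same test called 0 of the 6 in edgeR and in DESeq2, with 0 at an unadjusted p under 0.05 and 0% of all genes called.

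The S2 RiboMinus libraries, 1 for each dsRNA, allow no test. Gadd45 had 4 reads with GFP, 2 with Csl4, 4 with Rrp40 and 3 with Rrp6. In CPM the GFP value was 46.2, with an exact Poisson 95% interval from 12.6 to 118.4, and the Rrp6 value was 47.0, from 9.69 to 137.3. The intervals, which cover counting error only, overlap. Smg5 had 15 reads with GFP and 22 with Rrp6, or 173.4 CPM (97.0 to 286.0) and 344.6 CPM (216.0 to 521.7). Smg6 had 7 and 11 reads, and the Upf genes from 2 to 14 reads over the 4 libraries.

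Other genes of the pathway were taken from lists by role, and their counts stand beside the shares of all genes called with Rrp6 dsRNA, 20.2%, 19.7% and 12.4% higher and 16.9%, 16.4% and 7.35% lower in the 3 sets. Among 5 tested genes of the exon junction complex, the mark that splicing leaves on mRNA, 0 rose and 3 fell with Rrp6 in S2 poly(A) RNA, 2 fell in S3 poly(A) RNA and 1 in the RiboMinus fraction. The core subunit mago fell in all 3 sets (-1.115 ± 0.24, -1.21 ± 0.23 and -1.11 ± 0.38, edgeR adjusted p 0.000889, 0.00333 and 0.0237). The helicase eIF4A3 (-0.75 ± 0.23) and RnpS1, a splicing-linked peripheral subunit (-0.81 ± 0.22), fell in S2 poly(A) RNA, and tsu, the partner of mago, fell in S3 poly(A) RNA (-0.92 ± 0.22; edgeR adjusted p 0.0127, 0.00565 and 0.00984). Without the block the calls of mago and tsu in S3 poly(A) RNA were kept (adjusted p 0.0196 and 0.0473), and 0 of 5 were called in either of the remaining sets. DESeq2 did not call eIF4A3 in S2 poly(A) RNA (adjusted p 0.0534) or mago in S3 RiboMinus RNA (adjusted p 0.247). The median over the list was -0.75, -0.74 and -0.60 in the 3 sets, beside -0.048, 0.0084 and 0.067 over all genes. The 2 termination factors were not called by edgeR: eRF1, which reads the stop codon, was at -0.035, -0.54 and -0.42 and passed with DESeq2 in S3 poly(A) RNA (-0.46, adjusted p 0.0176), and its GTPase partner eRF3 at 0.31, 0.14 and 0.33.

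Among 4 genes of decapping and 5′ to 3′ decay, Edc3, an enhancer of decapping, was the only one called and rose in both poly(A) sets (1.399 ± 0.25 in S2 and 1.802 ± 0.24 in S3, edgeR adjusted p 0.000152 and 0.000645). Without the block the S2 call was lost (adjusted p 0.204) and the S3 call was kept. DCP1, DCP2 and the exonuclease pcm were not called in any of the 3 sets. Of the 3 Ski complex genes, which feed RNA to the cytoplasmic exosome, tst (-0.71 ± 0.21) and Ski8 (-0.96 ± 0.28) fell in S2 poly(A) RNA (edgeR adjusted p 0.0104 and 0.00944). Neither was called without the block (adjusted p 0.597 and 0.252), and Ski8 was not called by DESeq2 (adjusted p 0.0925). None of the list was called in S3, where Ski8 stood at -0.89 and -1.15 and tst at -0.085 and -0.16. The third, ski3, was at 0.066, -0.47 and -0.31.

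Of 3 transcripts that have been reported as sensitive to NMD in flies, 1 followed Gadd45. Arc1, which encodes a capsid-forming protein related to retrotransposon Gag, rose with Rrp6 by 3.90 ± 0.22, 4.64 ± 0.37 and 3.78 ± 0.33 (edgeR adjusted p 2.3e-11, 8.7e-05 and 6.1e-28), and all 3 calls were kept without the block. Its S3 poly(A) level was 354.4, 375.5 and 1814 CPM with GFP and 14420 and 22780 CPM with Rrp6, with no overlap. Arc1 also rose with Csl4 in S2 poly(A) and S3 RiboMinus RNA (1.47 ± 0.20 and 1.52 ± 0.30, edgeR adjusted p 0.000129 and 0.000128), where Gadd45 was not called. The antizyme gene Oda was at -0.47, 0.037 and 0.26 with Rrp6 and the sex-determination gene tra at -0.27, 0.34 and 0.048, and neither was called, though Oda passed without the filter on low counts in S2 poly(A) RNA (-0.54, adjusted p 0.0319).

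In the stress kinase pathway, in which Gadd45 proteins act, 8 of 9 listed genes were tested. With Rrp6, puc, a phosphatase gene induced by JNK signalling, rose in S2 poly(A) (1.58 ± 0.22) and S3 poly(A) RNA (1.29 ± 0.32; edgeR adjusted p 1.3e-05 and 0.0124). The gene hep, which encodes a kinase that activates JNK, rose in S3 poly(A) RNA (1.68 ± 0.30) and the RiboMinus fraction (1.01 ± 0.32; edgeR adjusted p 0.00283 and 0.0131), and Mekk1, the kinase that Gadd45 proteins bind, rose in S3 poly(A) RNA (0.88 ± 0.28, edgeR adjusted p 0.0316). In S2 poly(A) and S3 RiboMinus RNA Mekk1 stood at 0.40 ± 0.23 and 0.55 ± 0.33 and was not called, and neither of the differences from the S3 poly(A) change passed (S3 minus S2 0.50 ± 0.38, RiboMinus minus poly(A) -0.39 ± 0.43, edgeR adjusted p 0.603 and 1). The JNK gene bsk fell in S2 poly(A) RNA (-0.77 ± 0.23, edgeR adjusted p 0.0117). Without the block hep in S3 poly(A) RNA was the 1 call of this list that was kept (adjusted p 0.0191), and those of puc (adjusted p 0.143 and 0.0562), Mekk1 (0.0974), bsk (0.347) and hep in RiboMinus RNA (0.492) were lost. DESeq2 did not call bsk in S2 poly(A) RNA or hep in S3 RiboMinus RNA (adjusted p 0.0594 and 0.0527). Over the 25 tested genes of the 6 lists, 3 rose and 6 fell in S2 poly(A) RNA, 5 rose and 2 fell in S3 poly(A) RNA, and 2 rose and 1 fell in S3 RiboMinus RNA. Without the block these counts were 1 and 0, 3 and 2, and 1 and 0, and with DESeq2 3 and 3, 6 and 3, and 1 and 0. Over all genes DESeq2 called 1866, 3079 and 732 in the same order of sets, and edgeR without the block 9, 1076 and 15.

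**Figure D5:**
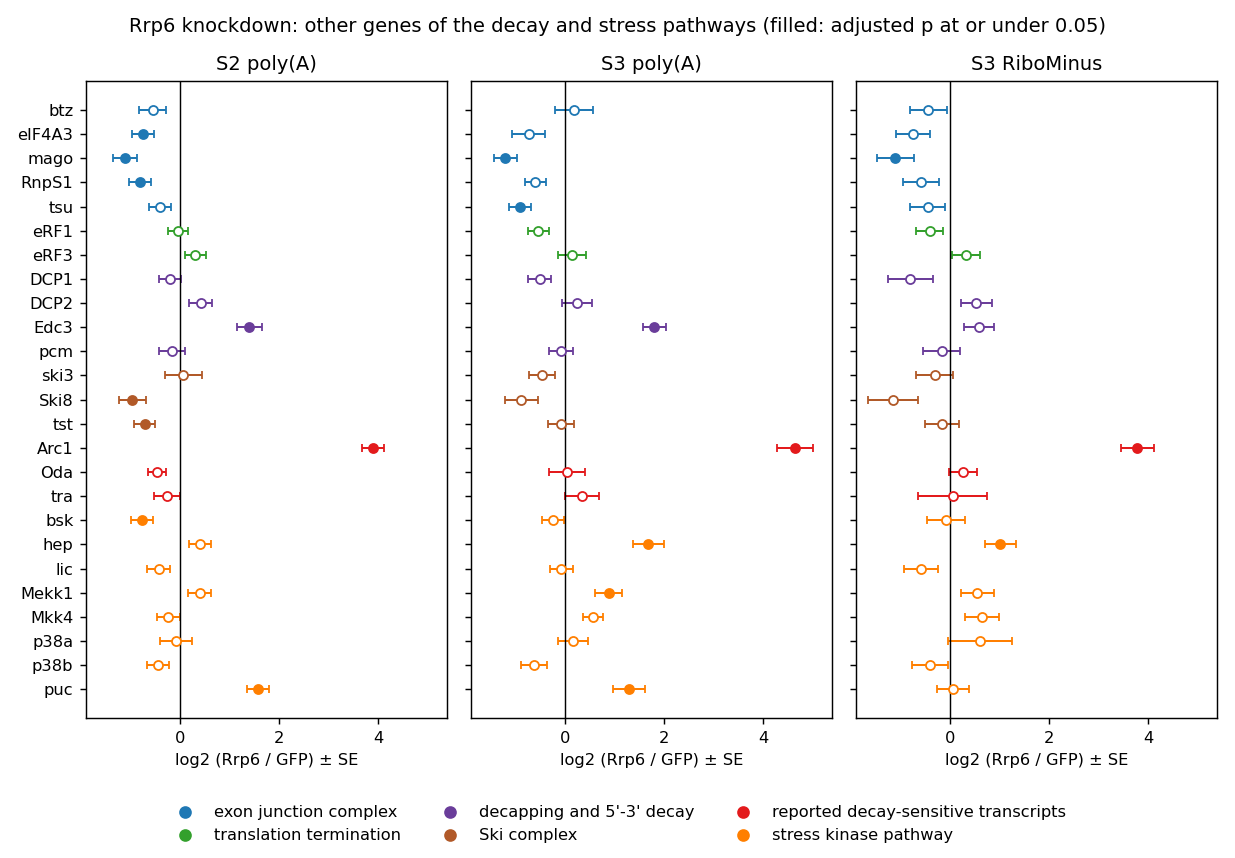
Log2 change with Rrp6 dsRNA over GFP, with its SE, for the 25 tested genes of 6 lists, coloured by list, in the 3 sets with replicates. Filled symbols passed an edgeR adjusted p of 0.05; Arc1 stands at 3.90, 4.64 and 3.78 and mago at -1.115, -1.21 and -1.11.

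The genes whose pattern was most like that of Gadd45 were found by correlating log2(CPM + 1), as deviations from the mean of line, fraction and depth class, over the 20 libraries with at least 500000 reads. Of 6612 genes with a mean of at least 5 CPM in each set, the 5 highest Pearson r were those of Ets21C (0.97), CG2017 (0.97), CG7069 (0.96), FBgn0259141 (0.96) and vri (0.96). Ets21C encodes an ETS-family transcription factor and vri a bZIP repressor of the circadian clock. Each of the 5 rose with Rrp6 in the 3 sets, Ets21C by 2.55, 4.18 and 2.20. Without the block all 5 kept their calls in S3 poly(A) RNA, none did in S2 poly(A) RNA, and FBgn0259141 was the 1 that did in S3 RiboMinus RNA. Because the 5 were picked for their likeness to Gadd45 over the same libraries, their rise follows from the choice and is no separate result. The r of Gadd45 was 0.90 with Arc1, 0.86 with Smg6, 0.79 with Edc3, 0.49 with Upf2, 0.14 with Smg5, -0.12 with Upf1 and -0.52 with Upf3. In the same order their ranks by r among the genes compared were 90, 241, 532, 1687, 2659, 3308 and 4485. Many genes thus followed Gadd45 more closely than Arc1, Smg6 or Edc3 did. These values describe libraries that share their dsRNA and set and carry no test.

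In the authors' deposited tables Gadd45 passed an adjusted p of 0.05 in 1 of the 12 tables. That was Rrp6 in S3 poly(A) RNA, where the authors' deposited table gives means of 112.1 and 1437 normalized reads, a 12.8-fold difference with an adjusted p of 0.000112. The authors' deposited tables for Rrp6 give Gadd45 3.74-fold in S2 poly(A) and 3.53-fold in S3 RiboMinus RNA, with adjusted p of 0.577 and 0.566. Smg6 was 2.82-fold in the authors' deposited table for Rrp6 in S3 poly(A) RNA (adjusted p 0.266). Of the 72 values of the 6 genes in the authors' deposited tables, the Gadd45 value named above was the 1 that passed. Calls were few there over all genes tested. With Rrp6 their share was 2.45% for S3 poly(A) RNA, 2.8% for its RiboMinus fraction, 0.462% for S2 poly(A) RNA and 0% for S2 RiboMinus RNA. Across the Csl4 and Rrp40 tables it ran from 0.00944% to 1.73%. Whether 1 of 72 differs from these shares was not tested.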

How the data were processed

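Poly(A)+ and RiboMinus RNA of S2 and S3 cells was sequenced. The submitters' processing notes name DESeq 1.9.11, HTSeq 0.5.3p9, TopHat 1.4.1, cutadapt 1.0 and CASAVA 1.8. The deposited values of each table are group means, a signal made by the authors by dividing reads by DESeq size factors, with a fold (ratio), a log2 fold change and p-values that the authors computed with DESeq, a local fit and per-condition or blind variance, per the file headers.

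Whole reads of each library were recovered from these means; at least 99.947% of values per column were resolved. Reads shared between tables show which GFP library is replicate 3 in the poly(A) sets. The S3 RiboMinus tables all hold the same GFP libraries, so sharing cannot tell these apart. There, and for the knockdowns, the shallower library was taken to be replicate 3 from its depth. Summary entries that name no gene held 61.46% to 93.81% of reads and were left out. Gene names matched 14085 of 15065 IDs.

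Reads were tested with edgeR 4.0.16 in R 4.3.3 (quasi-likelihood, TMM scaling, filterByExpr, Benjamini-Hochberg adjustment over all genes, threshold 0.05), all groups of a set sharing 1 estimate of spread, with the depth class as a block. In S3 RiboMinus RNA the own spread of a gene did not enter that estimate. Across genes, the deeper-minus-shallower difference correlated between dsRNA groups by 0.65 to 0.68 over 3 pairs of groups for S2 poly(A) RNA, by 0.35 to 0.61 over 6 for S3 poly(A) RNA and by 0.25 to 0.35 over 6 for S3 RiboMinus RNA, which is the source of the pairing. The block was kept with the calls with and without it already known. Its deeper class joins replicates 1 and 2, and its shallower class is replicate 3. Joint fits gave the line and fraction comparisons. Intervals are 95%, and those on reads cover counting error only. Counts were also simulated for Rrp6 against GFP, with 200 genes changed in each set and all others at the GFP level. There, 4-fold changes were recovered in 88.4% and 2-fold changes in 46% (S2 poly(A), 7905 genes), in 86.4% and 16.9% (S3 poly(A), 7923) and in 75.9% and 13.3% (S3 RiboMinus, 8286). Most 2-fold changes were thus missed in the simulation. The real fits called far more genes with Rrp6, so these rates may not hold for them. CPM are not per length and are compared within a gene. Named list genes are at most 3 called genes in each direction, and all genes of lists of 3 or fewer; other list genes named were chosen after their values were seen. The members and lists were chosen with earlier results of these data known, and 3 list symbols were respelled to match the tables. DESeq2 1.42.0, RLE scaling, no filter, no block, fewer libraries and the authors' calls were the alternatives. Peak lists were not used here.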

Additional observations from a re-analysis of the deposited data

How the results depend on the processing

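The depth block carried most calls: without it the Rrp6 changes of Gadd45 in S2 poly(A) and S3 RiboMinus RNA, 1.93 and 1.69, lost their calls, and those of Gadd45 and Smg6 in S3 poly(A) RNA kept them. Over all genes the Rrp6 calls without the block numbered 9 in S2 poly(A) RNA and 1076 and 15 in poly(A) and RiboMinus RNA of S3, beside 2933, 2859 and 1636 with it. Apart from leaving out libraries, 545 of 602 recomputed gene values kept sign and side of the threshold, 22 lost a call, 8 gained one and 27 changed sign. Leaving out 1 library gave 1153 of 1262 unchanged in this sense, 19 calls lost, 9 gained and 81 changes of sign. Every change of sign was in a value called in neither fit (lowest adjusted p 0.176). S3 RiboMinus calls rest in part on shallower GFP and Rrp6 libraries of 2 to 8 reads for Gadd45 and Smg6. Of the 8 S3 RiboMinus fits with 1 library left out, 4 tested Gadd45, those without a replicate 3 library. Upf3 was also tested in 4 of the 8. The Rrp6 change of Gadd45 in its 4 fits ran from 1.518 to 1.768 against GFP and from 1.459 to 1.804 against Rrp40. The S3 RiboMinus counts of called genes given below therefore include fits in which Gadd45 was not tested. A fit of the Rrp40 and GFP libraries alone could not be made in S2 poly(A) RNA, with no residual degrees of freedom. The causes were not tested.

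In what follows pA is poly(A), Ribo is RiboMinus, vs is against, and values are log2. Without the depth block the sign differed for Smg5 Rrp40 vs GFP S2 pA (-0.11), Upf1 Rrp6 vs Rrp40 S2 pA (0.19), Smg6 Csl4 vs GFP S3 pA (-0.024), Upf3 Rrp40 vs GFP S3 pA (0.082), Upf3 Csl4 vs GFP S3 Ribo (0.042), Smg6 Rrp40 vs GFP S3 Ribo (0.089), Upf1 Csl4 response S3 minus S2 pA (-0.33). Without the depth block the number of the 6 genes called became 0 in Rrp6 vs GFP S2 pA, 0 in Rrp6 vs Csl4 S2 pA, 0 in Rrp6 vs Rrp40 S2 pA, 0 in Rrp6 vs Csl4 S3 pA, 0 in Rrp6 vs Rrp40 S3 pA, 0 in Rrp6 vs GFP S3 Ribo, 0 in Rrp6 vs Rrp40 S3 Ribo, 0 in Ribo vs pA GFP S3. With RLE scaling the sign differed for Upf3 Rrp40 vs GFP S3 pA (0.012), Upf1 Rrp6 vs GFP S3 pA (0.018), Upf3 Csl4 vs GFP S3 Ribo (0.0081), Smg5 Rrp40 vs GFP S3 Ribo (0.019), Gadd45 Rrp40 vs GFP S3 Ribo (0.0042), Upf1 S3 vs S2 GFP pA (-0.044). Without the filter on low counts the sign differed for Smg5 Csl4 vs GFP S3 Ribo (-0.014), Smg5 Rrp40 vs GFP S3 Ribo (0.0055), Upf1 Csl4 response S3 minus S2 pA (-0.0025). Without the filter on low counts the number of the 6 genes called became 1 in Rrp6 vs GFP S3 Ribo, 1 in Rrp6 vs Rrp40 S3 Ribo, 2 in Rrp6 response S3 minus S2 pA, 1 in Rrp6 response Ribo minus pA S3. With DESeq2 the sign differed for Upf1 Rrp6 vs GFP S3 pA (0.020), Upf3 Csl4 vs GFP S3 Ribo (0.057), Smg5 Rrp40 vs GFP S3 Ribo (0.021), Smg6 Rrp40 vs GFP S3 Ribo (0.060), Upf1 S3 vs S2 GFP pA (-0.045). With DESeq2 the number of the 6 genes called became 1 in Rrp6 vs GFP S3 Ribo, 0 in Rrp6 vs Rrp40 S3 Ribo, 2 in Rrp6 response S3 minus S2 pA. In the authors' deposited tables the sign differed for Upf2 Rrp40 vs GFP S2 pA (0.42), Upf3 Rrp40 vs GFP S3 pA (0.27), Upf3 Csl4 vs GFP S3 Ribo (0.20), Upf2 Rrp40 vs GFP S3 Ribo (-0.0074), Smg6 Rrp40 vs GFP S3 Ribo (0.20), Upf3 Rrp6 vs GFP S3 Ribo (0.16). In the authors' deposited tables the number of the 6 genes called became 0 in Rrp6 vs GFP S2 pA, 1 in Rrp6 vs GFP S3 pA, 0 in Rrp6 vs GFP S3 Ribo. 

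With 1 library left out in turn, Upf2 Csl4 vs GFP S2 pA -0.42 to 0.72, Smg6 Csl4 vs GFP S2 pA -0.095 to 0.30, Gadd45 Csl4 vs GFP S2 pA -0.36 to 0.69, Upf2 Rrp40 vs GFP S2 pA -0.69 to 0.43, Upf3 Rrp40 vs GFP S2 pA -0.67 to 0.37, Upf2 Rrp6 vs GFP S2 pA -0.21 to 0.96, Upf2 Rrp6 vs Csl4 S2 pA -0.0076 to 0.97, Upf3 Rrp6 vs Csl4 S2 pA -0.40 to 0.38. Further ranges were Upf2 Rrp6 vs Rrp40 S2 pA -0.32 to 0.68, Upf3 Rrp6 vs Rrp40 S2 pA -0.57 to 0.012, Upf1 Csl4 vs GFP S3 pA -0.79 to 0.23, Upf3 Csl4 vs GFP S3 pA -0.064 to 0.26, Smg5 Csl4 vs GFP S3 pA -0.82 to 0.020, Upf2 Rrp40 vs GFP S3 pA -0.28 to 0.20, Upf3 Rrp40 vs GFP S3 pA -0.25 to 0.38, Smg6 Rrp40 vs GFP S3 pA -0.23 to 0.024. Further ranges were Upf2 Rrp6 vs GFP S3 pA -0.29 to 0.18, Upf1 Rrp6 vs Csl4 S3 pA -0.32 to 0.70, Smg5 Rrp6 vs Csl4 S3 pA -0.73 to 0.27, Upf2 Rrp6 vs Rrp40 S3 pA -0.14 to 0.30, Smg5 Rrp6 vs Rrp40 S3 pA -0.76 to 0.15, Upf1 Csl4 vs GFP S3 Ribo -0.16 to 2.68, Smg5 Csl4 vs GFP S3 Ribo -0.21 to 0.14, Upf3 Csl4 vs GFP S3 Ribo -0.22 to 0.022. Further ranges were Upf1 Rrp40 vs GFP S3 Ribo -0.19 to 2.62, Upf2 Rrp40 vs GFP S3 Ribo -0.11 to 0.061, Smg5 Rrp40 vs GFP S3 Ribo -0.24 to 0.13, Smg6 Rrp40 vs GFP S3 Ribo -0.16 to 1.17, Gadd45 Rrp40 vs GFP S3 Ribo -0.066 to 0.089, Upf1 Rrp6 vs GFP S3 Ribo -0.82 to 2.09, Upf2 Rrp6 vs GFP S3 Ribo -0.29 to 0.024, Upf2 Rrp6 vs Rrp40 S3 Ribo -0.35 to 0.067. Further ranges were Upf1 S3 vs S2 GFP pA -0.063 to 0.17, Upf2 S3 vs S2 GFP pA -0.016 to 1.05, Smg6 S3 vs S2 GFP pA -0.14 to 0.32, Upf1 Csl4 response S3 minus S2 pA -0.41 to 0.62, Smg6 Csl4 response S3 minus S2 pA -0.29 to 0.13, Upf2 Rrp6 response S3 minus S2 pA -0.83 to 0.23, Upf3 Rrp6 response S3 minus S2 pA -0.39 to 0.71, Upf1 Ribo vs pA GFP S3 -2.10 to 0.76. Further ranges were Upf3 Csl4 response Ribo minus pA S3 -0.25 to 1.09, Smg5 Csl4 response Ribo minus pA S3 -0.091 to 0.96, Upf1 Rrp6 response Ribo minus pA S3 -0.60 to 2.25, Upf2 Rrp6 response Ribo minus pA S3 -0.57 to 0.19, Smg5 Rrp6 response Ribo minus pA S3 -0.22 to 0.84, Smg6 Rrp6 response Ribo minus pA S3 -0.48 to 0.94. The number of the 6 genes called ran from 0 to 1 in Csl4 vs GFP S2 pA, 2 to 3 in Rrp6 vs GFP S2 pA, 1 to 2 in Rrp6 vs Csl4 S2 pA, 0 to 1 in Rrp6 vs Rrp40 S2 pA, 0 to 2 in Rrp6 vs Csl4 S3 pA, 1 to 2 in Rrp6 vs Rrp40 S3 pA, 0 to 2 in Rrp6 vs GFP S3 Ribo, 0 to 2 in Rrp6 vs Rrp40 S3 Ribo, 1 to 2 in S3 vs S2 GFP pA, 0 to 1 in Rrp6 response S3 minus S2 pA, 0 to 2 in Ribo vs pA GFP S3, 0 to 1 in Rrp6 response Ribo minus pA S3. Within these ranges the sign also differed for Upf2 Rrp6 vs GFP S2 pA (-0.18 without Rrp6 S2 pA replicate 3), Upf3 Rrp6 vs Csl4 S2 pA (0.12 without Rrp6 S2 pA replicate 3), Upf2 Rrp6 vs GFP S3 pA (-0.039 without Rrp40 S3 pA replicate 3), Upf2 Rrp6 vs Rrp40 S3 pA (-0.061 without Rrp40 S3 pA replicate 2), Smg5 Rrp6 vs Rrp40 S3 pA (0.051 without Rrp40 S3 pA replicate 2), Smg5 Csl4 vs GFP S3 Ribo (-0.038 without Csl4 S3 Ribo replicate 3), Smg5 Rrp40 vs GFP S3 Ribo (0.014 without Csl4 S3 Ribo replicate 2, 0.037 without Rrp6 S3 Ribo replicate 2, 8.9e-05 without Rrp6 S3 Ribo replicate 3), Smg6 Rrp40 vs GFP S3 Ribo (0.0064 without Csl4 S3 Ribo replicate 2), Upf2 Rrp40 vs GFP S3 Ribo (-0.0072 without GFP S3 Ribo replicate 3), Upf1 S3 vs S2 GFP pA (-0.058 without Csl4 S3 pA replicate 1, -0.029 without GFP S3 pA replicate 2), Upf1 Csl4 response S3 minus S2 pA (-0.12 without Csl4 S2 pA replicate 1, -0.15 without GFP S2 pA replicate 1, -0.017 without GFP S3 pA replicate 1, -0.0046 without GFP S3 pA replicate 3, -0.061 without Rrp40 S3 pA replicate 2, -0.071 without Rrp40 S3 pA replicate 3), Smg6 Csl4 response S3 minus S2 pA (0.034 without Csl4 S2 pA replicate 1), Upf2 Rrp6 response S3 minus S2 pA (0.047 without Rrp6 S3 pA replicate 3), Upf3 Csl4 response Ribo minus pA S3 (0.086 without GFP S3 pA replicate 3), Smg6 Rrp6 response Ribo minus pA S3 (0.045 without Rrp6 S3 Ribo replicate 2).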
